A study of Homo sapiens with 12 samples.

Results

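The transcriptional response to aristolochic acid I (AAI) was examined in HK-2 cells that carried a control siRNA. HK-2 is an established human line of immortalised kidney proximal tubule cells. All cells had received 10 nM of scrambled siRNA (SCR) together with either 25 µM AAI or its vehicle, DMSO, for 24 hours. The 3 SCR AAI and 3 SCR DMSO libraries, chosen by their titles, are 6 of the 12 bulk polyA RNA libraries of the study. The other 6 came from cells given the same agents with an siRNA against POLR2A (siB) and are used here only to ask whether the response differed. The line is a single immortalised culture, and nothing in the labels says that the replicates were separate cultures, so p-values measure the spread between these libraries, which may be technical.

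AAI is a nitrophenanthrene plant acid that damages the proximal tubule and causes aristolochic acid nephropathy. Tubule cells take it up through organic anion transporters, reduce its nitro group with enzymes such as NQO1, and so form bulky adducts on purines in DNA. Such adducts can stop RNA polymerase II on the template strand, and nucleotide excision repair and p53 signalling are the well-known cellular responses to lesions of this kind.

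Depth ran from 18111382 to 42805294 reads per library, which sets the floor of detection, taken as 3 reads, at 0.0701 to 0.166 counts-per-million (CPM). This floor covers counting error only, since PCR copies are not independent molecules. Kidney epithelial markers were present in both groups: PAX8, a transcription factor of the renal lineage, had 370, 388 and 418 CPM with DMSO and 201, 380 and 372 CPM with AAI, and the keratin KRT8 had means of 646 and 665 CPM. The 8 epithelial markers summed to 1907 to 2478 CPM per library with DMSO and 1666 to 1854 CPM with AAI. Of the 7 tested, 6 were lower with AAI and 1 higher, at a median of -0.36, and 0 were called. The mesenchymal markers VIM, CDH2 and FN1 summed to 8275 to 17727 CPM with DMSO and 4514 to 9086 CPM with AAI. All 3 were lower with AAI and 0 were called. Of 12 defining markers of the differentiated proximal tubule, 6 stayed under 1 CPM in every library, and the transporter SLC22A6 was at 0. The 12 summed to 130 to 158 CPM per library with DMSO and 118 to 155 CPM with AAI, and 4 had enough reads to be tested. Endothelial markers summed to 1.54 to 3.74 CPM per library with DMSO and 2.39 to 2.93 CPM with AAI, and markers of other nephron segments to 1.28 to 1.71 CPM and 1.77 to 3.98 CPM. Immune markers summed to 60.4 to 98.5 CPM and 76.1 to 85.9 CPM, nearly all of it CD68, with CD3E at 0. In bulk RNA, fewer cells of a type and less RNA per cell cannot be told apart.

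SCR DMSO replicate 2 stood apart from the other libraries of its group. Along the second principal component of the 6 libraries, which held 31.9% of the variance, it lay at 48.7, against -62.2 and -28.2 for replicates 1 and 3. TOP2A, the DNA topoisomerase of dividing cells, had 588, 52.2 and 342 CPM in replicates 1, 2 and 3, and the proliferation marker MKI67 had 652, 151 and 764 CPM. In the same order the epithelial integrin gene ITGB8 had 245, 15.7 and 129 CPM. Results that rest on this library are therefore given with and without it.

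Of 14228 genes tested, 7.73% rose and 2.73% fell, where a call needed an adjusted p under 0.05 and at least a 2-fold change on the log2(CPM + 1) scale. These were 1100 raised and 389 lowered genes, and in every one of them the 3 AAI libraries lay wholly above or below the 3 DMSO libraries, as they did in 33.8% of all tested genes. Where a called gene is described below as without overlap, this therefore adds nothing to its call. Without SCR DMSO replicate 2 the counts were 1235 (8.68%) and 749 (5.26%), and 1029 of the raised and 339 of the lowered genes were called in both fits. Leaving out single other libraries gave 1209 raised and 331 lowered genes without SCR DMSO replicate 1, 780 and 193 without SCR DMSO replicate 3, and 794 and 163, 787 and 122, and 757 and 118 without SCR AAI replicates 1, 2 and 3. There were 666 raised and 88 lowered genes that were called in all 6 such fits. The median change over all genes was 0.18 on the log2 scale, and median-ratio size factors shifted it by -0.199, so the direction of a change of this size depends on the scaling.

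The raised genes were mostly genes with little RNA in control cells, a class in which the filter largely sets the direction. Of 844 tested genes with a mean under 1 CPM in DMSO, 536 rose and 0 fell. A gene at that level could reach 1 CPM in 3 of the 6 libraries only with the help of AAI libraries. The median level of the raised genes went from 1.06 CPM in DMSO to 8.17 CPM in AAI, and 322 of them rose by over 2 on the log2 scale. Together they took 0.956% to 0.985% of reads in the DMSO libraries and 2.95% to 3.21% in the AAI libraries. The lowered genes started from a median of 27.5 CPM and went to 9.4 CPM, and 29 of them fell by more than 2 on the log2 scale. Their share of reads was 2.30% to 2.78% with DMSO and 0.937% to 1.03% with AAI. Among genes with a mean of 20 to 100 CPM in DMSO, 2.16% rose and 3.19% fell. Among genes over 100 CPM, 0.413% rose and 2.71% fell. The 10 genes with the most reads passed neither direction, with adjusted p from 0.0934 for ACTG1, a cytoplasmic actin, to 0.94 for MT-CO2, a mitochondrially encoded subunit of cytochrome oxidase.

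**Figure D1:**
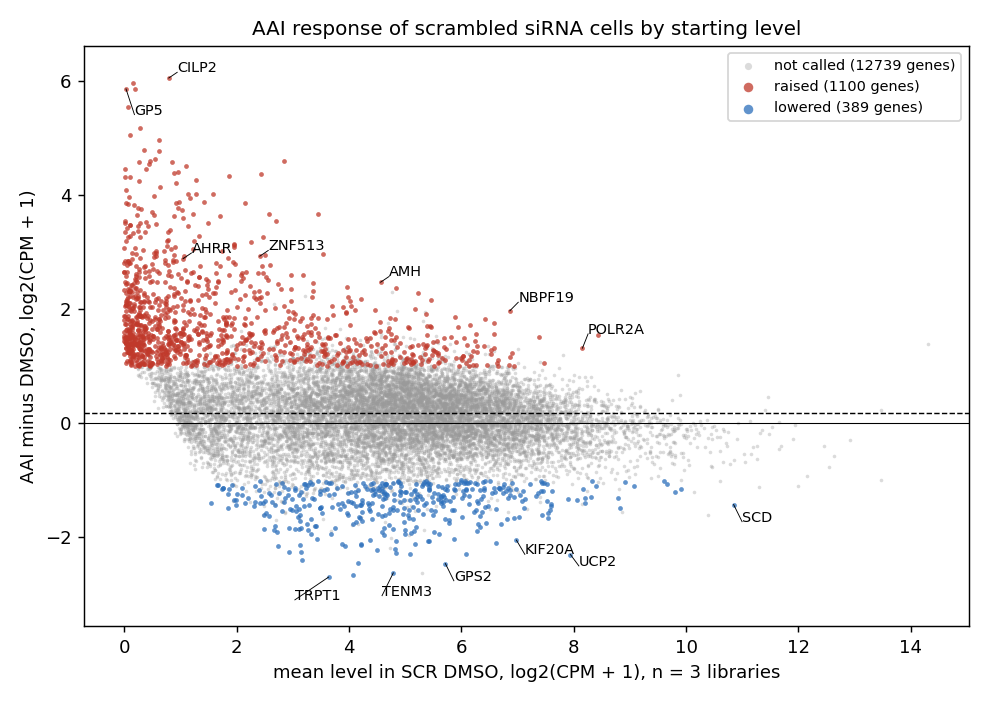
Each point is 1 of 14228 tested genes, with its mean log2(CPM + 1) in SCR DMSO cells on the x axis and its log2 change with AAI on the y axis. Raised genes (1100) crowd towards low control levels, where the filter admits mainly genes that are higher with AAI. Lowered genes (389) lie at intermediate levels, and the dashed line marks the median change of 0.18.

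Genes that were close to silent in control cells came on, and most of those that did lay downstream of an expressed gene. There were 5861 annotated protein-coding genes under 1 CPM in every SCR DMSO library, and 87 of them (1.48%) reached at least 5 CPM in every SCR AAI library, with a median of 10.8 CPM and a highest mean of 115 CPM. In the opposite direction, of 5291 genes under 1 CPM in every SCR AAI library, 1 had been at 5 CPM or more in every DMSO library. For 54 of the 87 (62.1%), a gene on the same strand with a mean of at least 5 CPM in DMSO ended within 10 kb upstream, at a median distance of 2802 bp. Of the 87, 19 had no expressed gene within 10 kb on any side and overlapped none. The question of position was chosen after the data were seen.

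The share that came on depended on where the neighbour lay. It was 12.2% (54 of 441 genes) with an expressed same-strand gene ending within 10 kb upstream and 0.609% (33 of 5420) without one. Leaving out SCR DMSO replicate 2 gave 12.8% (58 of 454) and 0.637% (35 of 5495). By distance to the end of that upstream gene the share was 14.8% within 2 kb, 17.6% from 2 to 5 kb, 6.18% from 5 to 10 kb, 4.98% from 10 to 20 kb, 1.48% from 20 to 50 kb and 0.260% beyond. With an upstream gene on the opposite strand instead it was 0.452%, with a same-strand gene downstream 0.673% and with an opposite-strand gene downstream 1.93%. For genes with no expressed gene within 10 kb on any side and none overlapping, it was 0.457%. These are shares of genes counted from the 6 libraries together, and genes are not replicates of the treatment.

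**Figure D2:**
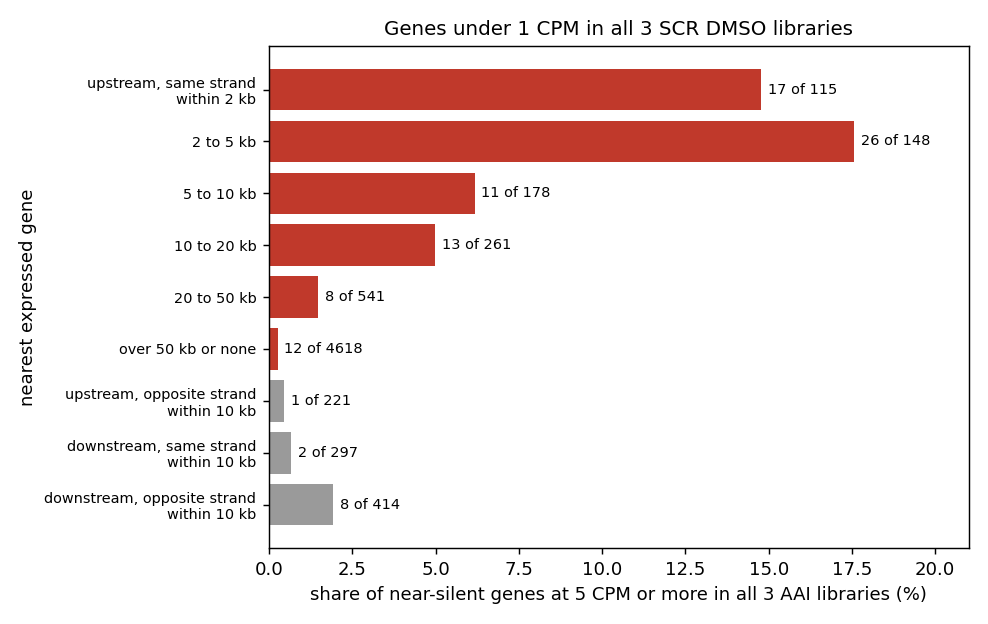
The bars give the percentage of protein-coding genes under 1 CPM in every SCR DMSO library that reached at least 5 CPM in every SCR AAI library, by the position of the nearest expressed gene (at least 5 CPM in DMSO). The share was 14.8% with a same-strand gene ending within 2 kb upstream and 0.260% where that gene lay over 50 kb away or there was none.

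The largest changes at a mean of at least 5 CPM were those of CILP2 (6.06), ALPK3 (5.97), GP5 (5.87) and FAM83E (5.87). ALPK3, a muscle kinase gene, starts 10911 bp past ZNF592, and GP5, a platelet glycoprotein gene, 3406 bp past ATP13A3. FAM83E, an epithelial family gene, had 0.139, 0.234 and 0.0368 CPM in SCR DMSO replicates 1, 2 and 3 and 64.3, 70.7 and 60.6 CPM in SCR AAI replicates 1, 2 and 3. It rose by 5.87 (log2, SE 0.23, adjusted p 3.23e-05) and starts 252 bp past the end of RPL18, a ribosomal protein gene with means of 523 and 514 CPM in the 2 groups. LCT, which encodes the intestinal enzyme lactase, had 0.0924, 0.0934 and 0.0368 CPM with DMSO and 36.2, 34.0 and 33.6 CPM with AAI, a rise of 5.05 (SE 0.22, adjusted p 3.59e-05). It lies 2442 bp past MCM6, a subunit of the replicative helicase, which had means of 181 and 133 CPM. In both genes every AAI library lay far above every DMSO library, and the upstream gene itself was not called. With every DMSO library under 1 CPM, both passed the filter only through their AAI libraries, so the direction was fixed in advance. The same holds for CHD5, FGF18, AOC3, CILP2, ACTA1 and FERMT3 below.

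Other genes of this set were CHD5, a chromatin remodeller of neurons, 4699 bp past RPL22, which went from 0.0924, 0.280 and 0.257 CPM to 57.5, 36.6 and 37.8 CPM. FGF18, a growth factor, lies 7837 bp past NPM1 and went from 0.139, 0.117 and 0.552 CPM to 34.3, 31.0 and 36.3 CPM. AOC3, an amine oxidase of vessels and fat, lies 7424 bp past PSME3 and went from 0.555, 0.537 and 0.515 CPM to 46.8, 35.7 and 41.8 CPM. No AAI library of these 3 genes was near a DMSO library, and the same held for EFCAB8, 8518 bp past MAPRE1, and for CILP2, 667 bp past YJEFN3. CILP2, a cartilage matrix gene, was at 0.601, 0.888 and 0.699 CPM and then at 98.6, 132 and 113 CPM.

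Named members of the gene lists lay at the same kind of position. ACTA1, skeletal muscle actin, lies 6155 bp past NUP133 and rose by 3.29 (log2), from 0.0234 to 0.139 CPM in DMSO libraries to between 7.30 and 13.4 CPM. ALDOC, the brain form of aldolase, lies 617 bp past SPAG5 and went from 1.06, 0.864 and 0.588 CPM to 27.7, 18.6 and 19.7 CPM, a rise of 3.63. CPT1B, the muscle form of the carnitine transferase that admits fatty acids to mitochondria, lies 494 bp past CHKB and rose by 2.45 from 11.5, 8.27 and 7.94 CPM to 69.0, 45.5 and 51.4 CPM. DHX58, a regulator of antiviral RNA sensing, lies 397 bp past KAT2A and rose by 1.64. AMH, the anti-Müllerian hormone gene, was already at 23.3, 26.0 and 18.5 CPM with DMSO and reached 133, 149 and 108 CPM, a rise of 2.47 (SE 0.24, adjusted p 0.000501), 654 bp past SF3A2. These 5 genes kept their call in every alternative.

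Limited to genes with at least 5 CPM in DMSO, 5.18% of those with an expressed same-strand gene ending within 10 kb upstream rose, against 1.97% of the rest. Whether counting was by strand is not given in the sources used here, and reads from overlapping genes on opposite strands could not be told apart. NBPF19, NBPF20 and NPIPA1 were also raised, but they belong to families of near-identical copies and their values are uncertain.

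The share of lowered genes was highest among the longest genes. Gene length was taken as the span in the annotation, and the share lowered was 3.68% of genes under 10 kb, 2.15% of those of 10 to 30 kb, 1.1% at 30 to 100 kb, 1.90% at 100 to 200 kb, 7.98% at 200 to 400 kb and 20.5% of the 292 over 400 kb. Without SCR DMSO replicate 2 these shares were 3.86%, 2.88%, 2.51%, 6.38%, 23.7% and 44.9%. The share raised was 13.4%, 8.28%, 5.39%, 2.64%, 1.68% and 2.74% in the same order. The median change ran from 0.25 at 30 to 100 kb to 0.07 at 100 to 200 kb, -0.33 at 200 to 400 kb and -0.77 over 400 kb. Of the 208 genes over 400 kb with at least 5 CPM in DMSO, 48 (23.1%) fell and 0 rose, and 110 (52.9%) fell without SCR DMSO replicate 2. The mean log2(CPM + 1) of genes over 400 kb was 4.15, 3.21 and 3.92 in SCR DMSO replicates 1, 2 and 3 and 2.83, 3.11 and 3.29 in SCR AAI replicates 1, 2 and 3. SCR DMSO replicate 2 thus overlapped the treated libraries on this measure, while the other control libraries did not.

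**Figure D3:**
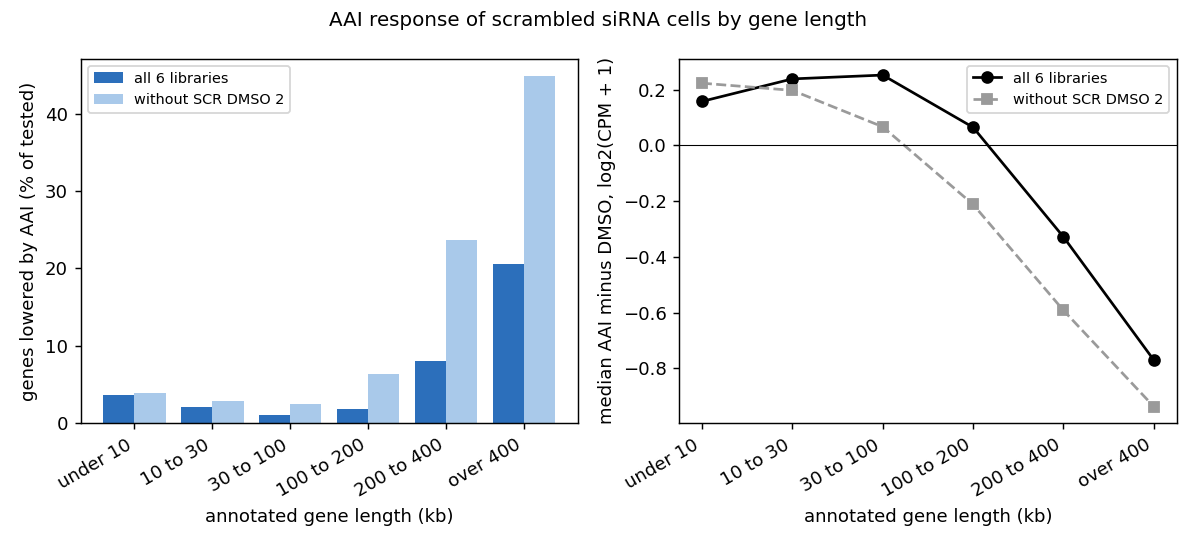
The left panel gives the percentage of tested genes lowered by AAI in 6 classes of annotated span, with all 6 libraries and without SCR DMSO replicate 2, and the right panel the median log2 change. The share rises to 20.5% over 400 kb with all libraries and to 44.9% without that library.

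Named long genes showed the size of these falls. TENM3, a teneurin of cell contacts, had 28.6, 21.5 and 29.7 CPM with DMSO and 1.99, 3.04 and 6.15 CPM with AAI. EXOC4, a subunit of the exocyst that tethers secretory vesicles, had 83.6, 44.5 and 73.2 CPM with DMSO and 7.51, 13.5 and 18.5 CPM with AAI, and fell by 2.30 on the log2 scale (SE 0.38, adjusted p 0.00644). TLN2, a talin that links integrins to actin, had 37.0, 53.7 and 43.8 CPM with DMSO and 7.01, 11.9 and 15.8 CPM with AAI, and fell by 1.92 (SE 0.33, adjusted p 0.00787). In these genes and in ANK2 (17, 8.34 and 22 CPM with DMSO and 0.386, 1.99 and 2.62 CPM with AAI) the groups did not overlap, and SCR AAI replicate 1 was the lowest library. HHAT, the acyltransferase that palmitoylates hedgehog proteins, fell by 2.20. These 5 calls held in every alternative. Those for EXOC6B, SNX29 and FRAS1, which span over 400 kb, were lost without SCR DMSO replicate 3 and without 1 or 2 of the AAI libraries.

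Among genes with at least 5 CPM in DMSO, 3.86% of those under 10 kb rose and 4.63% fell, and 3.43% of those of 10 to 30 kb rose and 2.57% fell. Short genes that faced an expressed gene fell more often than the others. Among genes under 30 kb with at least 5 CPM in DMSO, 6.30% (97 of 1540) of those whose 3′ end faced that of an expressed gene fell, against 2.08% (74 of 3554) of the others (6.17% and 2.67% without SCR DMSO replicate 2). At 30 to 100 kb these shares were 2.37% and 0.966% (3.13% and 2.66% without that library). Over 100 kb they were 6.54% and 5.79%, and the order reversed without that library (12.6% and 16.9%). GPS2, a subunit of the NCoR corepressor complex, faces the translation factor gene EIF5A and had 39.4, 68.4 and 46.8 CPM with DMSO and 9.61, 7.52 and 7.75 CPM with AAI, a fall of 2.47 (SE 0.28, adjusted p 0.00118). TNFAIP8L1, which faces MYDGF, fell by 2.31 on the log2 scale. KDELR3, a receptor that returns proteins to the endoplasmic reticulum, faces DDX17 and fell by 2.12. UCP2, a mitochondrial carrier gene that faced no expressed gene, had 197, 301 and 235 CPM with DMSO and 34.0, 57.3 and 56.3 CPM with AAI, a fall of 2.31 (SE 0.28, adjusted p 0.00153).

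A raised and a lowered gene overlapped at their 3′ ends. The raised gene, FERMT3, was under 1 CPM in every DMSO library, so it was not an expressed gene by the limit of 5 CPM used above. FERMT3 (chr11:64205926-64223896 on hg38, plus strand), a kindlin of blood cells, starts 1383 bp past STIP1 and rose by 4.98, from 0.416, 0.724 and 0.478 CPM to 49.9, 49.1 and 43.2 CPM. TRPT1 (chr11:64223799-64226254, minus strand), a tRNA phosphotransferase, overlaps its end on the opposite strand and had 10.4, 14.7 and 9.16 CPM with DMSO and 0.828, 1.27 and 0.587 CPM with AAI. TRPT1 was the most strongly lowered gene with a mean of at least 5 CPM, at -2.70 (SE 0.26, adjusted p 0.000567).

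Genes of mitosis were lowered more often than all genes, while genes of the G1 to S transition were raised no more often than all genes. Of 49 measured genes of mitosis and the spindle, 8 fell (16.3%) and 0 rose, with a median change of -0.30, against 2.73% lowered and a median of 0.18 over all genes. Of 56 genes of DNA replication and the G1 to S transition, 4 rose and 0 fell, with a median of 0.35 and 43 above 0. That is 7.14% raised, under the 7.73% of all genes. Without SCR DMSO replicate 2 the counts were 10 lowered mitosis genes, at a median of -0.69, and 5 raised G1/S genes. The mitosis count was 4 without SCR DMSO replicate 3 or SCR AAI replicate 2 and 5 without SCR AAI replicate 3, and the G1/S count was 2 without SCR AAI replicate 3. The median of the G1/S list was 0.14 with median-ratio size factors, and 2 of its genes rose and 2 fell with that scaling.

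Control regions of these genes are shown because both classes are known to be read through short promoter motifs. Mitotic genes often carry the CHR element (letters TTTGAA) and CCAAT boxes (CCAAT), read by the DREAM complex, MuvB and NF-Y, and G1/S genes carry E2F sites (TTNNCGC). The 250 bases before the RefSeq start site were searched on both strands for 10893 of the 14228 tested genes (RefSeq, GRCh38.p14). CCAAT was found in 76.2% of the 42 mitosis promoters (32), against 35% of all, and CHR in 54.8% (23), against 8.20% of all. TTNNCGC was found in 59.6% of the 47 G1/S promoters (28), against 32.5% of all. Among lowered mitosis genes 6 of 7 promoters had CCAAT and 4 of 7 the CHR, and all 4 raised G1/S promoters had TTNNCGC. A match is a description of the letters and not of a bound site.

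The 130 bases before the start are printed for 3 lowered mitosis genes, with CCAAT boxes and the CHR in capitals on either strand.
CCNB1 (chr5:69167020-69167149, plus strand): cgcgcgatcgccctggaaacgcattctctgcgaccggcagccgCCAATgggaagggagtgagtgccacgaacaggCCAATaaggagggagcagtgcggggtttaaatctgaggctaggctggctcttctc
CDC20 (chr1:43358851-43358980, plus strand): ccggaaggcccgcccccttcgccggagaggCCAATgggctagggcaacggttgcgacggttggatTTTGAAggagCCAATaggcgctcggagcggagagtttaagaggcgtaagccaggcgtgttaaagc
CCNB2 (chr15:59105016-59105145, plus strand): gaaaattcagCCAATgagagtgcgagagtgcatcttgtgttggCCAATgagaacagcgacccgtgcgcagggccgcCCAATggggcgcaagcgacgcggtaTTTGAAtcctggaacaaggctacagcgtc

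The same stretch is printed for 3 raised G1/S genes, with TTNNCGC in capitals on either strand, and overlapping matches run together.
E2F1 (chr20:33686386-33686515, minus strand): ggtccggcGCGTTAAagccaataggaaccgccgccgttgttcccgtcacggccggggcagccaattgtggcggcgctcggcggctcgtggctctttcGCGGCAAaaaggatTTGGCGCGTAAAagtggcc
E2F2 (chr1:23531234-23531363, minus strand): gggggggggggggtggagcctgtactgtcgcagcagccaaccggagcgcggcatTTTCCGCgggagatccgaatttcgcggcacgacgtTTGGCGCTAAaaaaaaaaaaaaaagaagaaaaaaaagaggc
CDC25A (chr3:48188418-48188547, minus strand): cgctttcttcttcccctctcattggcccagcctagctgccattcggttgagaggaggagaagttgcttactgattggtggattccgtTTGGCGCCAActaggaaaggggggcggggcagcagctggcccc

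CCNB1 encodes cyclin B1, the partner of CDK1 at mitotic entry. It had 188, 184 and 178 CPM with DMSO and 77.2, 62.4 and 72.6 CPM with AAI, a fall of 1.37 (log2, SE 0.19, adjusted p 0.00297). KIF20A, a kinesin of the central spindle, had 133, 120 and 122 CPM with DMSO and 41.1, 20.9 and 29.2 CPM with AAI, a fall of 2.06 (SE 0.27, adjusted p 0.00227). In both genes, whose promoters carry paired CCAAT boxes close to the start, every treated library lay far under the lowest control library. CDKN3, a phosphatase of cyclin-dependent kinases, fell by 1.54 from 48.5, 40.2 and 47.3 CPM to 19.3, 14 and 12.1 CPM. CDC25B, the phosphatase that activates CDK1, fell by 1.33 from 234, 251 and 232 CPM to 108, 86.3 and 89.8 CPM, and its promoter held neither motif. These 4 calls held in every alternative.

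The other lowered mitosis genes sat close to the fold limit. AURKA, a spindle pole kinase, fell by 1.19 and was not called without SCR DMSO replicate 3 or SCR AAI replicate 2. CDC20, the activator of the anaphase-promoting complex, fell by 1.15, and the kinase gene PLK1 fell by 1.02. Leaving out any library other than SCR DMSO replicate 1 ended both calls. CCNB2, the cyclin B2 gene, fell by 1.05 and was not called without SCR DMSO replicates 1 or 3 or SCR AAI replicates 2 or 3. TOP2A and MKI67, which are also made in dividing cells, had 472, 181 and 287 CPM and 576, 287 and 462 CPM with AAI. Those values lay within the range of the DMSO libraries, and without SCR DMSO replicate 2 the 3 AAI values of MKI67 lay under both DMSO values while those of TOP2A still overlapped them.

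E2F1, an activator of S phase genes, had 107, 145 and 106 CPM with DMSO and 266, 316 and 252 CPM with AAI, a rise of 1.23 (SE 0.22, adjusted p 0.0089). E2F2, its close relative, had 15.5, 13.3 and 17 CPM with DMSO and 44.4, 57.4 and 57.1 CPM with AAI, a rise of 1.73 (SE 0.24, adjusted p 0.00275) that held in every alternative. In both the groups were far apart. CDC25A, the phosphatase of S phase entry, rose by 1.19 from 46.5, 49.2 and 44.3 CPM to 109, 95.7 and 120 CPM, and ORC6, a subunit of the origin recognition complex, rose by 1.15. CDC25A was not called without SCR AAI replicate 3, nor ORC6 without SCR DMSO replicate 3 or SCR AAI replicates 1 or 3. With median-ratio size factors E2F1, CDC25A and ORC6 stayed higher with AAI but were no longer called.

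Clustered histone genes make RNAs that mostly lack a polyA tail, so polyA libraries catch only part of them, and 28 of 66 could be tested. Of the 28, 27 were higher with AAI, 3 were called raised (10.7%, against 7.73% of all genes) and the median change was 0.84. The calls depended on the libraries: limma called 0 without SCR AAI replicates 1 or 2, 1 without SCR DMSO replicate 1 or SCR AAI replicate 3, 5 without SCR DMSO replicate 2, 6 without SCR DMSO replicate 3 and 5 with the replicate block. A TATA box (TATAAA) was found in 64.3% of their promoters (18 of 28), against 5.43% of all.

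Some lipid synthesis genes fell. Of 39 measured genes of cholesterol and fatty acid synthesis, 6 fell (15.4%, against 2.73% of all genes) and 0 rose, 33 were lower with AAI and the median change was -0.47 (-0.46 without SCR DMSO replicate 2, -0.69 with median-ratio size factors). SCD, the desaturase that makes oleate, had 1558, 1821 and 2142 CPM with DMSO and 684, 597 and 757 CPM with AAI, a fall of 1.43 (SE 0.22, adjusted p 0.00488). FADS1, a desaturase of polyunsaturated fatty acids, had 174, 138 and 169 CPM with DMSO and 72.2, 54.9 and 70.0 CPM with AAI, a fall of 1.28 (SE 0.21, adjusted p 0.00689). Neither gene overlapped between the groups, and both calls held in every alternative. FDFT1, the squalene synthase gene, fell by 1.42, a call lost without SCR AAI replicates 2 or 3. The calls of the sterol enzymes MSMO1 (-1.15) and DHCR7 (-1.06) were lost without any AAI library or without SCR DMSO replicate 3, that of MSMO1 also without SCR DMSO replicate 1 and that of DHCR7 also without SCR DMSO replicate 2. The list had 3 lowered genes without SCR DMSO replicate 3 and 2 without SCR AAI replicates 2 or 3. INSIG1 (-0.98, adjusted p 0.0256) and SQLE (-0.92, adjusted p 0.0422), a sensor and an early enzyme of the sterol pathway, passed the p threshold and not the fold limit.

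Genes that handle the toxin and its DNA lesions were examined as lists. Of 17 genes of AAI uptake, activation and the aryl hydrocarbon receptor (AhR), 11 could be tested and 1 rose (9.09%, against 7.73% of all genes), or 2 without SCR DMSO replicate 2. That gene was AHRR, the repressor of the receptor and itself its target, with 1.11, 1.19 and 0.882 CPM with DMSO and 9.88, 15.1 and 19.0 CPM with AAI (2.89, SE 0.28, adjusted p 0.000566). AHRR starts 6740 bp past PDCD6 on the same strand. CYP1B1, another target, had 27.3, 7.48 and 21.4 CPM with DMSO and 13.9, 35.4 and 42.2 CPM with AAI, so the groups overlapped (0.71, adjusted p 0.45). CYP1A1 stayed at or under 2.04 CPM and was not tested. NQO1 differed by 0.03 (adjusted p 0.97).

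None of the 31 genes of nucleotide excision repair was called (limma, 0), also with any library left out, and 2 were raised with the replicate block. Their median change was 0.33, and 0.14 without SCR DMSO replicate 2. Of 51 genes of damage signalling and recombination, 0 rose and 2 fell (3.92%, against 2.73% of all genes). RAD54L, a motor protein gene of strand exchange in recombination, fell by 1.11 (adjusted p 0.0165), a call lost without SCR DMSO replicate 3 or SCR AAI replicates 2 or 3. The list had 0 lowered genes without SCR DMSO replicate 3 or SCR AAI replicates 2 or 3 and 1 without SCR DMSO replicate 1 or SCR AAI replicate 1. The replicate block gave 3 raised genes in this list. The median of this list was 0.58 and dropped to 0.05 without SCR DMSO replicate 2, so its level above the median of all genes rests on that library.

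Of 34 measured p53 targets, 2 rose (5.88%, against 7.73% of all genes) and 0 fell, at a median of 0.22. Without SCR DMSO replicate 2, 4 rose and 2 fell. PMAIP1, which encodes the BH3 protein NOXA, had 60.5, 39.1 and 52.1 CPM with DMSO and 158, 102 and 127 CPM with AAI, a rise of 1.33. PIDD1, the core of the PIDDosome, rose by 1.40 from 11.4, 15.4 and 13.2 CPM to 38.1, 43.3 and 29.4 CPM. No overlap was seen in either gene, but both calls were lost without SCR DMSO replicate 3 or SCR AAI replicate 1, that of PIDD1 also without SCR AAI replicate 2 and that of PMAIP1 also without SCR AAI replicate 3. CDKN1A, the p21 inhibitor of cyclin-dependent kinases, had 182, 169 and 191 CPM with DMSO and 299, 305 and 263 CPM with AAI, a difference of 0.67 (SE 0.19, adjusted p 0.0535) that did not pass. The replicate block gave 3 raised and 3 lowered targets. GADD45A missed the p threshold at 1.03 (adjusted p 0.0533), and was called without SCR DMSO replicate 2 and with the replicate block. MDM2, the ubiquitin ligase of p53, differed by 0.29 (adjusted p 0.722).

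Some early-response and stress genes rose. Of 14 genes of the AP-1 and ATF families 3 rose (21.4%), and of 36 genes of the EGR, IER and DUSP type 4 rose (11.1%), against 7.73% of all genes, with 0 lowered in both lists and medians of 0.24 and 0.45. ATF3, a stress transcription factor that marks injured tubules, had 22.6, 24.3 and 25.2 CPM with DMSO and 77.6, 60.9 and 73.9 CPM with AAI, a rise of 1.52 (SE 0.21, adjusted p 0.00317). KLF4, a Krüppel-like factor, had 2.31, 3.34 and 4.67 CPM with DMSO and 14.1, 12 and 13.7 CPM with AAI, a rise of 1.72 (SE 0.28, adjusted p 0.00586). Both calls held in every alternative and neither gene overlapped between groups. FOSB, a partner of JUN, rose by 1.70 and ID2, an inhibitor of helix-loop-helix factors, by 1.79. Both were lost without SCR AAI replicates 2 or 3, and ID2 also without replicate 1. The first list had 1 raised gene without SCR AAI replicate 3, and the second had 1 without SCR AAI replicates 1 or 3 and 2 without replicate 2. With the replicate block 7 genes of the second list rose.

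In the inflammatory list of 25 measured genes, 1 rose (4%, against 7.73% of all genes). CXCL8, the neutrophil chemokine, had 136, 115 and 97.1 CPM with DMSO and 256, 238 and 284 CPM with AAI (1.16), and was lost without SCR DMSO replicate 3, without SCR AAI replicate 3 and with median-ratio size factors. IL6 varied more between replicates than between groups, at 2.63, 20.6 and 16.8 CPM with DMSO and 3.15, 44.5 and 48.7 CPM with AAI. Of 41 interferon response genes 3 rose (7.32%, against 7.73% of all genes) and 1 fell. In this list 1 rose without SCR AAI replicates 1 or 3, and 4 fell without SCR DMSO replicate 2 and 2 with the replicate block. The lowered gene, IFI35, had 16.0, 21.2 and 16.2 CPM with DMSO and 4.91, 4.89 and 4.19 CPM with AAI and held in every alternative. Of 32 NRF2 genes 3 rose (9.4%, against 7.73% of all genes). They were OSGIN1 by 2.14 from 8.18, 16.9 and 20.5 CPM to 49.3, 89.4 and 65.5 CPM, the export pump ABCC2 by 1.57 and its relative ABCC3 by 1.22. The call of OSGIN1 was lost without SCR AAI replicate 2 and that of ABCC3 without SCR AAI replicate 3. The median of the NRF2 list was 0.13, and -0.08 with median-ratio size factors.

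Among 41 genes of the unfolded protein and integrated stress responses, 1 rose (2.44%, against 7.73% of all genes) and 2 fell (4.88%, against 2.73%). ATF6B, a membrane-bound transcription factor of the endoplasmic reticulum, had 96.8, 102 and 93.7 CPM with DMSO and 27.7, 36.8 and 37.3 CPM with AAI, a fall of 1.51 (SE 0.21, adjusted p 0.00324) that held in every alternative. PPP1R15A, which encodes the phosphatase subunit GADD34, rose by 1.36, and VLDLR, a lipoprotein receptor, fell by 1.30. Both were lost without SCR DMSO replicates 1 or 3 or SCR AAI replicates 2 or 3, and VLDLR also without SCR AAI replicate 1. Of 44 proteasome genes limma called 0, also with any library left out.

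Single genes of the transcription machinery were called. Of 12 RNA polymerase II subunit genes, 1 rose (8.33%, against 7.73% of all genes) and 1 fell (8.33%, against 2.73%), at a median of 0.23. POLR2A, which encodes the catalytic subunit RPB1, had 258, 288 and 306 CPM with DMSO and 673, 719 and 729 CPM with AAI, and its adjusted p ran from 1.87e-05 to 0.0264 over the alternatives. POLR2L, a small subunit shared by RNA polymerases I, II and III, fell by 1.27 and was lost without SCR DMSO replicate 3 or any AAI library. Of 37 elongation and pausing factors 1 fell (2.7%, against 2.73% of all genes). It was NELFE, a subunit of the negative elongation factor, called in every alternative. NELFE had 74.5, 104 and 59.6 CPM with DMSO and 26.5, 21.9 and 24.5 CPM with AAI (-1.63, SE 0.26, adjusted p 0.00563). Of 30 mediator genes, 1 fell (3.33%, against 2.73% of all genes). This gene, MED22, fell by 1.21 and was lost without SCR DMSO replicate 3 or SCR AAI replicates 1 or 3. None of 35 genes of 3′ end cleavage and the Integrator complex was called (limma, 0), with 27 above 0 and a median of 0.38. In that list 1 or 2 genes were called without SCR DMSO replicates 2 or 1 and 0 without each other library. With the replicate block 2 genes of that list and 2 elongation factors rose.

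Some adhesion and matrix genes fell. Of 44 integrin and focal adhesion genes, 6 fell (13.6%, against 2.73% of all genes) and 3 rose (6.82%, against 7.73%), at a median of -0.27. Without SCR DMSO replicate 2, 8 fell at a median of -0.55. The lowered genes were TLN2, described above, and ITGB3, ACTN1, TNS1, PARVB and VCL, which link integrins to the cytoskeleton. The raised genes were ITGA10, ITGA11 and ITGA9, which had at most 1.47 CPM in a DMSO library, where the filter admits mainly genes that are higher with AAI. Of 54 matrix genes 4 fell (7.41%, against 2.73% of all genes), at a median of -0.32. COL4A5, a chain of basement membrane collagen, had 29.4, 10.5 and 13.0 CPM with DMSO and 3.92, 1.95 and 2.90 CPM with AAI and fell by 2.15, a call lost without SCR AAI replicates 2 or 3. LOXL2, a collagen cross-linking enzyme, fell by 1.15 from 857, 1346 and 689 CPM to 499, 377 and 383 CPM, and was lost without SCR DMSO replicate 2 or any AAI library. The adhesion list had 1 lowered gene without SCR DMSO replicate 3 or SCR AAI replicates 2 or 3 and 2 without SCR AAI replicate 1. The matrix list had 0 without SCR AAI replicate 2 and 1 without SCR AAI replicates 1 or 3. The replicate block gave 8 lowered matrix genes.

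Contractile genes of the actin and SRF list had a median of -0.56 (-0.49 without SCR DMSO replicate 2). Of 30, 3 rose (10%, against 7.73% of all genes) and 3 fell (10%, against 2.73%). The lowered genes were ANKRD1, a stretch-responsive repeat protein gene, TPM1 and VCL, and the raised genes were ACTA1, TPM2 and LMOD1, at most 1.2 CPM in a DMSO library. At such levels the filter admits mainly genes that are higher with AAI, so the share raised says little about the list. ANKRD1 had 131, 91.3 and 126 CPM with DMSO and 37.6, 46.0 and 61.4 CPM with AAI, a fall of 1.26 (adjusted p 0.0184) that was lost without SCR DMSO replicate 3 or SCR AAI replicates 1 or 2. The list had 5 lowered genes without SCR DMSO replicate 2 and with the replicate block, 1 without SCR AAI replicates 1 or 3 and 0 without SCR AAI replicate 2.

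Calls among epithelial junction and keratin genes depended on SCR DMSO replicate 2. Of 51 measured, 1 fell with all libraries (1.96%, against 2.73% of all genes), at a median of -0.35. Without that library, where 5.26% of all genes fell, 11 fell at a median of -0.51, and 3 fell with the replicate block. The gene called was MAGI1, a scaffold of tight junctions that spans 685 kb, with 33.9, 16.3 and 21 CPM with DMSO and 3.37, 5.66 and 9.04 CPM with AAI. It was lost without SCR DMSO replicate 3 or SCR AAI replicates 1 or 2. CDH1, the gene of E-cadherin, had 25.2, 2.87 and 11.8 CPM with DMSO and 7.12, 2.76 and 2.98 CPM with AAI. Its difference was -1.14 (adjusted p 0.316) with all libraries and -1.89 (adjusted p 0.00537) without SCR DMSO replicate 2. Fibroblast markers summed to 31.6 to 54.1 CPM with DMSO and 22.5 to 27.2 CPM with AAI, most of it COL1A1. Their part in these values was not tested.

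Genes of proximal tubule function split. Of 45 listed, 23 had enough reads. Of these, 4 rose (17.4%, against 7.73% of all genes) and 1 fell (4.35%, against 2.73%). The list was not matched for level. Over all genes 12.9% rose at a mean of 1 to 5 CPM in DMSO and 4.72% at 5 to 20 CPM. The 4 raised genes were called with each library left out. CYP27B1, the enzyme that activates vitamin D, had 1.11, 0.677 and 1.43 CPM with DMSO and 16.6, 12.7 and 14.6 CPM with AAI (2.93, SE 0.25, adjusted p 0.000302). AMN, the membrane anchor of the cubilin receptor, rose by 2.44 from 6.61, 5.44 and 5.04 CPM to 28.7, 45 and 33.8 CPM. SLC5A2, which encodes the glucose transporter SGLT2, rose by 1.75 from 3.70, 4.42 and 3.13 CPM to 17.9, 15.6 and 11.7 CPM, and lies 5042 bp past TGFB1I1. SLC7A9, a cystine transporter subunit, rose by 2.20 and lies 6158 bp past CEP89. No DMSO library of these genes reached an AAI library, though CYP27B1, SLC5A2 and AMN each overlap an expressed gene. The median of the list was -0.30, and 5 genes fell without SCR DMSO replicate 2 and 2 with the replicate block.

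Of 31 injury and repair genes 2 rose (6.45%, against 7.73% of all genes), ATF3 and CXCL8, and 1 fell, or 4 without SCR DMSO replicate 2. HAVCR1, which encodes the injury marker KIM-1, had 228, 78.9 and 200 CPM with DMSO and 73.0, 66.3 and 84.6 CPM with AAI. Its difference was -1.04 (adjusted p 0.134) with all libraries and -1.51 (adjusted p 0.000487) without SCR DMSO replicate 2, where the groups no longer overlapped, and it was called with the replicate block, in which 4 genes of the list fell. VIM, the mesenchymal intermediate filament gene, had 1270, 2694 and 1313 CPM with DMSO and differed by -0.72 (adjusted p 0.194). The matrix gene FN1 differed by -1.0 (adjusted p 0.17), CTGF by -0.23 and KLF6 by -0.11, and none passed. In the Krüppel-like family of 18 measured genes, KLF4 rose (5.56%, against 7.73% of all genes) and KLF12 and KLF7 fell (11.1%, against 2.73%). Both falls were lost without SCR DMSO replicate 3 or any AAI library, that of KLF7 also without SCR DMSO replicate 1.

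**Figure D4:**
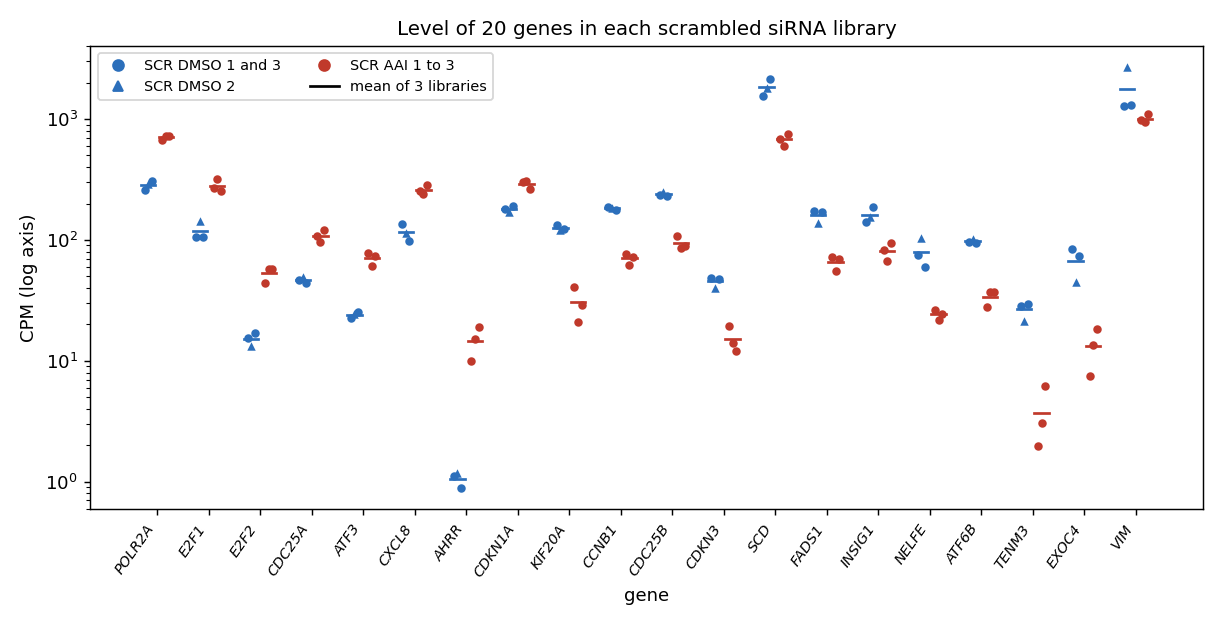
Each point is the CPM of 1 gene in 1 library on a log axis, with SCR DMSO and SCR AAI in different colours and SCR DMSO replicate 2 as a triangle, for 20 genes. KIF20A, SCD and ATF3 separate by group with no overlap, and for VIM the triangle lies highest at 2694 CPM.

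Some large families had medians above that of all genes. Of 437 zinc finger genes, many of which encode KRAB-type repressors, 361 were higher, 22 rose and 3 fell, at a median of 0.45. That is 5.03% raised, under the 7.73% of all genes, although the median lay above theirs. Without SCR DMSO replicate 2 the median was 0.22 (0.06 over all genes), and with median-ratio size factors 0.26 (-0.02 over all genes). Of 34 HOX genes 7 rose (20.6%, against 7.73% of all genes) and 0 fell, at a median of 0.49 (0.58 without SCR DMSO replicate 2). HOXA2 led them with 2.40, 1.14 and 1.88 CPM with DMSO and 20.6, 9.92 and 14.9 CPM with AAI (2.5, SE 0.33, adjusted p 0.00216). The HOX list was not matched for level, and 12.9% of all genes with a mean of 1 to 5 CPM in DMSO rose. HOXA2 lies 3498 bp past HOXA3 and HOXD9 2782 bp past HOXD10 on the same strand, as is usual in these clusters. The zinc finger list had 37 raised genes without SCR DMSO replicate 1, 14 without SCR DMSO replicate 3 and 11, 13 and 10 without SCR AAI replicates 1, 2 and 3. The HOX list had 3 without SCR DMSO replicate 3 or SCR AAI replicates 1 or 3 and 4 without SCR AAI replicate 2. The replicate block gave 43 raised zinc finger genes.

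Genes of nucleolar ribosome assembly were higher in 51 of 53 cases at a median of 0.52, and 0 were called (limma, 0 to 3 with single libraries left out and 4 raised with the replicate block). That median was 0.37 without SCR DMSO replicate 2 and 0.31 with median-ratio size factors. Of 82 cytosolic ribosomal protein genes 0 were called. Their median of -0.10 became 0.09 without SCR DMSO replicate 2 and -0.31 with median-ratio size factors, so it has no fixed sign. The 13 mitochondrially encoded mRNAs had a median of -0.20 with 0 called. Of 40 glycolysis and hypoxia genes 3 rose (7.5%, against 7.73% of all genes), at a median of -0.22, with 1 raised without any AAI library. Of 52 genes of autophagy and the lysosome 3 rose (5.77%, against 7.73% of all genes) and 2 fell (3.85%, against 2.73%). Their median of 0.12 became -0.09 with median-ratio size factors. In that list 1 gene rose without SCR DMSO replicate 3 or any AAI library.

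**Figure D5:**
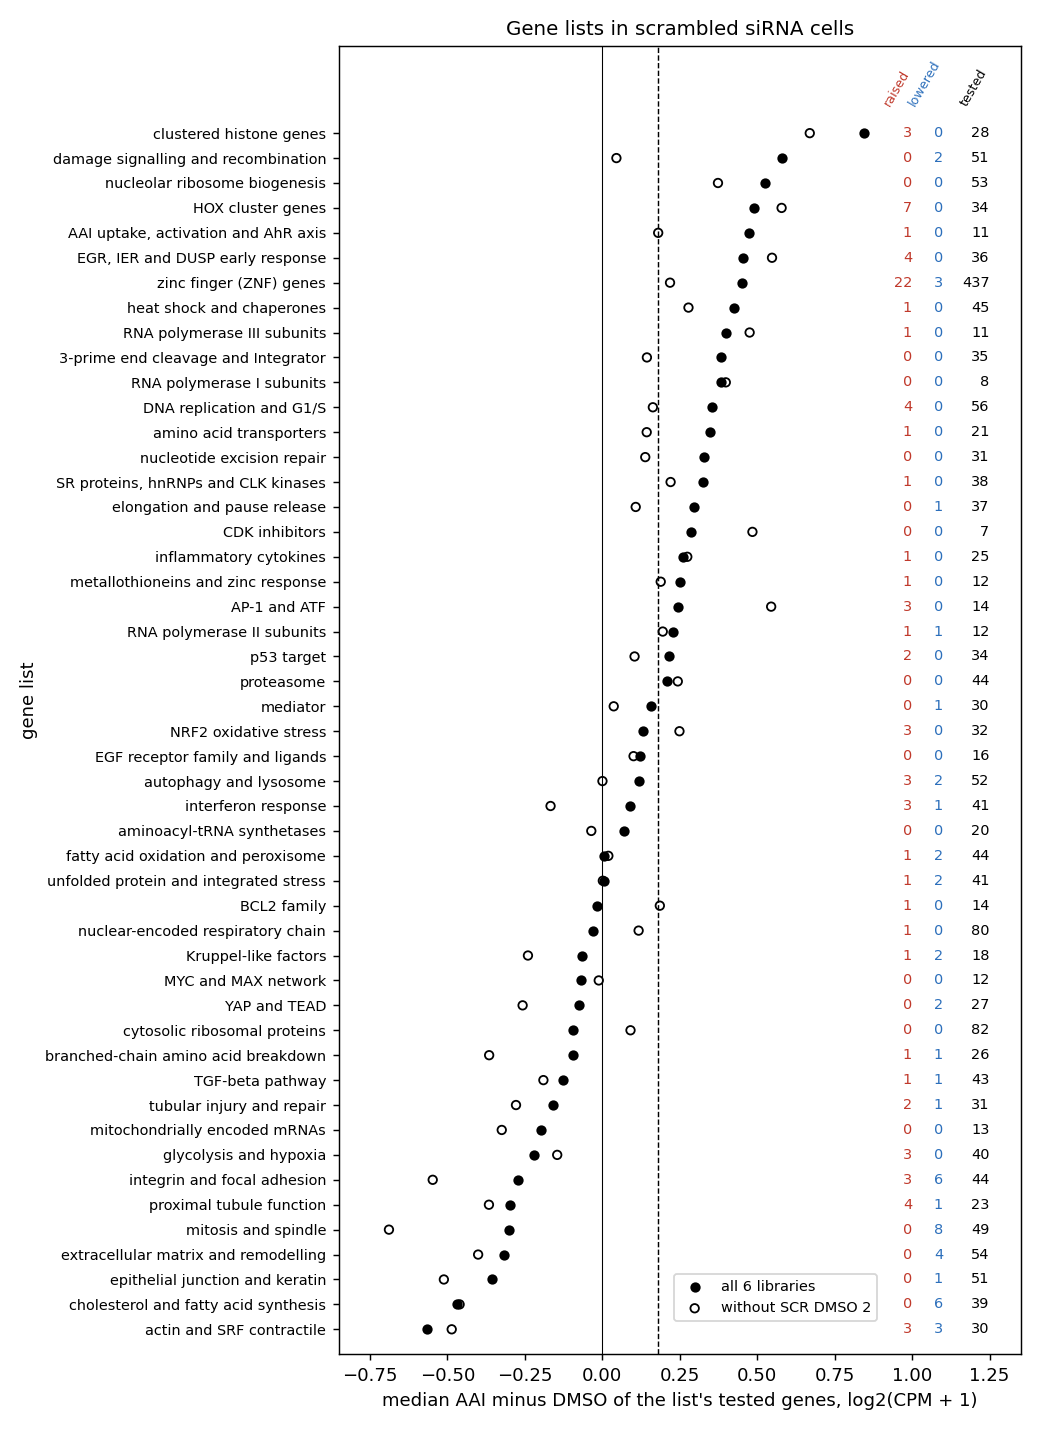
Each row is 1 of 49 gene lists, with its median log2 change with all 6 libraries (filled) and without SCR DMSO replicate 2 (open), and the numbers raised, lowered and tested at the right. Cholesterol and fatty acid synthesis lies at -0.47 and nucleolar ribosome biogenesis at 0.52, against 0.18 for all genes.

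Whether the response depended on POLR2A was asked with the interaction of siRNA and AAI over all 12 libraries. It passed for 247 of 15325 genes (1.61%) at an adjusted p under 0.05, and 2032 had an unadjusted p under 0.05. The change in SCR cells was the more positive in 24 and the more negative in 223 of them. The count ran from 81 to 1010 with single libraries left out, the latter without SCR DMSO replicate 2, and was 0 with voom on the recovered reads and 0 with a mean CPM of at least 5. Of the 247 genes 39 were called in SCR cells. Of 1463 genes called in SCR cells and also tested in siB cells, 1458 changed in the same direction in siB cells. The same share over all genes is not given here. Most calls in SCR cells were raised genes, with a median of 1.06 CPM in DMSO. Among genes under 1 CPM there, the filter largely set the direction. The count therefore does not show whether the response depended on POLR2A. RILP, a lysosomal adaptor 763 bp past PRPF8, had 5.08, 8.64 and 5.33 CPM with DMSO and 18.1, 26.5 and 18.0 CPM with AAI in SCR cells, and 10.2, 11.4 and 14.9 CPM and 11.4, 11.4 and 13.3 CPM in siB cells (difference of the changes 1.58, adjusted p 0.0368).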

How the data were processed

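PolyA RNA of HK-2 cells was sequenced in 12 libraries, 4 groups of 3, and 6 are described here. Groups were taken from sample titles, since the treatment label read DMSO for every sample. The authors aligned paired-end reads to hg38, counted them with a UCSC annotation on BioJupies, and deposited log10(CPM + 1) for 35238 genes. Aligner and strandedness are not given in the sources used here. CPM and whole reads were recovered from these log10 values (100% whole within 0.1 reads).

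Genes that reached 1 CPM in 3 or more of the 6 libraries were tested with limma 3.58.1 in R 4.3.3 (lmFit, eBayes with trend) on log2(CPM + 1), with Benjamini-Hochberg correction over all 14228 genes, and every adjusted p is from limma. Fold changes on this scale understate those of low genes. Leave-one-out fits kept the same genes. The code was tested on simulated data. The interaction was fitted over 4 groups, with no fold limit. Gene spans and neighbours came from GENCODE on hg38 and promoters from RefSeq. Alternatives were voom, each library left out, a replicate block, no fold limit, no trend, a pseudocount of 0.1, median-ratio size factors, no filter, only genes averaging 5 CPM, and a fit of all 4 groups. Same-numbered SCR libraries deviated together (correlations 0.44, 0.50 and 0.37, against -0.62 to 0.16 for the other pairings). The labels do not say that a replicate number is shared, and these few values do not settle it. The main fit therefore has no replicate block, and the block is given as an alternative.

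Named genes were the 10 most changed each way at a mean of at least 5 CPM over the 6 libraries and at a DMSO mean of at least 20 CPM, up to 4 called (or 2 most abundant) per gene list, the 10 with most reads, POLR2A, KLF6, IL6, CTGF, VIM and CDKN1A, genes in which SCR DMSO replicate 2 stood apart, and up to 4 interactions each way. The most changed genes were taken from called genes without overlap, a condition that every called gene met. Members of the cell cycle, lipid, p53 and injury lists and marker genes were named beyond this rule. The members and lists were chosen with earlier results of these data known. The names of 28 genes had turned into dates and are not given. The results of a few genes are not reported here.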

Additional observations from a re-analysis of the deposited data

Results flagged for a closer look

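The AAI response of 8 genes differed between SCR and siB cells by the interaction test of limma over all 12 libraries, and these are the largest such differences each way at a mean of at least 5 CPM. The differences are SCR minus siB on the log2 scale. None was seen with voom or with a mean CPM of at least 5, where 0 genes passed (1548 and 1125 at an unadjusted p under 0.05).

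RASSF10, a Ras-association family gene, differed by 2.18 (adjusted p 0.00428). Its levels were 3.60, 4.46 and 4.67 CPM with DMSO and 5.30, 5.62 and 4.82 CPM with AAI in SCR cells, and 15.3, 13.9 and 14.4 CPM and then 2.08, 3.83 and 3.59 CPM in siB cells. CEBPA, a transcription factor of differentiation, differed by 1.98 (adjusted p 0.0134), with 16.6, 17.2 and 12.9 CPM going to 43.6, 41.4 and 23.3 CPM in SCR cells and 34.3, 42.5 and 38.0 CPM going to 23.4, 18.0 and 20.7 CPM in siB cells. In both genes the siB DMSO libraries lay above the SCR DMSO libraries. RILP differed by 1.58 (adjusted p 0.0368) and GPR162, an orphan receptor gene, by 1.56 (adjusted p 0.0166).

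The change was smaller in SCR than in siB cells for a transcript with a clone name only (-2.44, adjusted p 0.0171), GRAMD2 (-2.42, adjusted p 0.0184), TLL2 (-2.21, adjusted p 0.0194) and MYH15 (-2.11, adjusted p 0.0103). In siB cells TLL2, a protease of the tolloid family, went from 8.72, 10.3 and 10.1 CPM to 40.1, 29.5 and 29.7 CPM, and GRAMD2 from 1.5, 1.26 and 1.12 CPM to 35.5, 14.6 and 18.4 CPM.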

How the results depend on the processing

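Depth limits genes near 0, where 1 to 3 reads decide a level. The counts of raised and lowered genes, 1100 and 389, were 474 and 250 with a mean CPM of at least 5, which tests fewer low genes, and 917 and 716 with median-ratio size factors. The raised share of all calls was 73.9% as deposited and 56.2% with those factors. Leaving out 1 library gave 757 to 1235 raised and 118 to 749 lowered genes. With the replicate block there were 1378 and 539, all 1100 and 389 among them, and 14 further named genes were called, while no named call was lost. The 247 interactions became 389 with the replicate block, 46 with a pseudocount of 0.1, 625 with no filter, 0 with a mean CPM of at least 5 and 0 with voom, and 81 to 1010 with 1 library left out. The cause was not tested. Of 131 named called genes none reversed, and calls were lost most often without SCR AAI replicates 2 (58 genes), 3 (56) or 1 (48) and without SCR DMSO replicate 3 (44), and for 25 with no filter and 16 with median-ratio size factors. The shares of near-silent genes that came on were recomputed without SCR DMSO replicate 2, an alternative chosen after seeing the data.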
